A study of Mus musculus with 9 samples.

Results

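The set described here is the cilium and axoneme genes on the array: every probe set with 1 platform symbol that starts with Dnah, Dnai, Dnali, Tekt, Rsph, Cfap, Ift or Bbs and a digit, and the probe sets of Foxj1, Tppp3, Spag6l, Lrrc23, Mlf1 and Fank1. Spag16 was looked for and has no probe set with its symbol alone among those analysed. The rule gave 48 probe sets for 36 genes, out of 22626 probe sets on the array. The rule uses no signal, but it was set with earlier results of these data known. Motile axoneme genes had 30 of these probe sets (22 genes), and Ift and Bbs genes had 18 (14 genes).

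Cilia are thin projections built on a core of doublet microtubules called the axoneme. Motile cilia, as on ciliated cells of the airway and nose, carry dynein arms that slide the doublets, radial spokes that regulate the sliding, and tektins inside the doublet wall, and their gene programme is switched on by the transcription factor Foxj1. Intraflagellar transport (Ift) proteins carry cargo along the axoneme and the Bbs proteins form an adaptor complex for membrane cargo. Motile and non-motile cilia both use these transport proteins, so Ift and Bbs genes are active in many cell types.

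The tissue was the lateral nasal gland, a serous gland in the wall of the mouse nose. All mice were males of 2 to 3 months. The groups were wild-type 129/Sv (2 arrays), wild-type B6 (4 arrays) and Cyp2g1-null (3 arrays), and each array carried RNA pooled from the glands of 10 mice of 1 group. The null mice lack Cyp2g1, a cytochrome P450 of the olfactory mucosa, and have a mixed genetic background, which is why both strains served as controls. A difference between null mice and either strain can therefore come from the background as well as from the deletion, and these cannot be told apart. P-values measure the spread between pools.

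Cyp2g1, the targeted gene, had signals of 55.7, 140.6 and 201.1 on the null arrays and 207.5 to 5916.8 on the 6 wild-type arrays, with no overlap (exact two-sided permutation test on 3 against 6 arrays, p = 0.0238, where 0.0119 is the smallest p of 84 splits). The wild-type arrays differed widely in this gene and in Omp, a marker of olfactory neurons, whose probe set 1422200_at ran from 607.2 to 3323.4 on wild-type and from 656.1 to 1869.7 on null arrays. B6 array 1 was highest in both. The 9 probe sets of glandular serous markers had a summed signal of 321141 to 341489 in 129/Sv, 287213 to 299541 in B6 and 328152 to 377044 in the null arrays. All null arrays were thus above all B6 arrays in this sum. Array medians lay between 518.5 and 550, with a trimmed mean of 1500.6 on every array.

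A probe set was tested when its signal exceeded the median of its array on at least 2 arrays. This left 39 cilium probe sets (32 genes) among 12575 tested. Of the 39, 28 exceeded the median on all 9 arrays and 0 passed through arrays of a single group. Fank1 1419566_at and Ift122, however, exceeded it on B6 array 1 and otherwise only on null arrays. They would not have passed without the null arrays, so for them the filter depends on the group compared. Both enter the counts and medians given for the 39. Ift27 1424648_at exceeded the median on B6 and null arrays but on neither 129/Sv array. All 18 Ift and Bbs probe sets passed, but 21 of the 30 motile ones did. The 9 that did not pass had signals of 9.6 to 547.1. They include the only probe sets of Dnah1 (an inner arm dynein), Tekt2 (a tektin), Rsph6a (a spoke protein of the sperm tail) and Cfap97. Differences below are fitted on log2(signal + 16) with limma, with standard errors (SE), and adjusted p-values are Benjamini-Hochberg values over the 12575 probe sets.

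The start-site sequences of 4 genes are shown because their probe sets gave some of the larger differences in their classes: Lrrc23, Dnah5 and Tekt1 among the axoneme genes and Ift88 among the transport genes. Each is the 250 bases before a transcription start, 5′ to 3′ on the gene's strand, from RefSeq promoters on GRCm38.p6. Capitals mark GTTGCC or its reverse complement GGCAAC, the half-site bound by RFX factors, which act with Foxj1 on ciliary genes. The windows are chr6:124779728-124779977 (minus strand) for Lrrc23, chr15:28203516-28203765 (plus strand) for Dnah5, chr11:72361883-72362132 (minus strand) for 1 of the 2 Tekt1 starts, and chr14:57423821-57424070 (plus strand) for Ift88.
Lrrc23: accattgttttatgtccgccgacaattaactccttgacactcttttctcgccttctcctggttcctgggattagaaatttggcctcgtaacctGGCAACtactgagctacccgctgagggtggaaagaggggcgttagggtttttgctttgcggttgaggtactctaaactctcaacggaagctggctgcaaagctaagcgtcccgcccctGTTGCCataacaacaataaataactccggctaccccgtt
Dnah5: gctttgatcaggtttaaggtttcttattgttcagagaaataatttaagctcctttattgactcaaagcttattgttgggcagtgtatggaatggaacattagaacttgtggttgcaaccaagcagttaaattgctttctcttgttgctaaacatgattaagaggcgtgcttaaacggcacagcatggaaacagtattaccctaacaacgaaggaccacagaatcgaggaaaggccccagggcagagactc
Tekt1: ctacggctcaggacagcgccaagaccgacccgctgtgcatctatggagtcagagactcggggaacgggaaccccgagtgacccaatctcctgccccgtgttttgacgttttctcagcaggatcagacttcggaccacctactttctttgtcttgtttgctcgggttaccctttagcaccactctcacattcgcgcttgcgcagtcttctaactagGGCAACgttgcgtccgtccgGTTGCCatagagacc
Ift88: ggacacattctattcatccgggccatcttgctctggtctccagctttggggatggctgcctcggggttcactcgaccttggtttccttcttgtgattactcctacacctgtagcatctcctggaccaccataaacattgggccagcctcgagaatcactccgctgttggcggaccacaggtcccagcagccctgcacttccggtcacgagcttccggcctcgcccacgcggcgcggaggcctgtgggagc

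Lrrc23 holds the half-site at 157 to 152 and at 39 to 34 bases before its start, and Tekt1 at 35 to 30 and at 15 to 10 bases of the start shown. The window of the other Tekt1 start (chr11:72361297-72361546) has 0 matches. The letters are not in these windows of Dnah5 and Ift88. RefSeq windows were matched for 28 of the 36 genes, and 10 of the 28 (35.7%) held the half-site on either strand, against 11.8% of the 27025 genes in the promoter table. The share was 7 of 17 motile axoneme genes (41.2%) and 3 of 11 Ift and Bbs genes (27.3%). The paired form GTTNCCNNGGNAAC, which reads the same on both strands and can overlap the half-site, occurred in 0.374% of all windows and, among the matched genes, in Cfap298 alone. The forkhead letters TGTTTAC (reverse complement GTAAACA) occurred in 3.17% of all windows, and here in those of Cfap20 and Mlf1. A match describes letters in a window and does not show binding.

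Cilium genes were mostly brighter on the null arrays. Against the mean of both strains, 3 of the 39 probe sets rose and 0 fell: Dnah5, Lrrc23 and Tppp3, all of the motile axoneme class. Over all probe sets tested, 0.755% rose and 0.469% fell. Earlier results of these data, known when the set was chosen, already showed these 3 genes. The shares of all probe sets are therefore given as a description and test nothing about the set. At an unadjusted p under 0.05, 17 of 39 had a difference, all positive, against 11.9% of all probe sets in either direction. All 7 probe sets of the genes that the rule names singly were among these 17. Those genes were picked with earlier results known, so this count tests nothing about the set. One of the 7, Fank1 1419566_at, would not have passed the filter without the null arrays. The fitted difference was positive for 36 of 39, against 52.5% of all. Null signals lay above all 6 wild-type arrays for 9 of 39 probe sets and below all 6 for 0, against 2.9% and 1.96% of all. Pooled tissue cannot tell more ciliated cells from more RNA per cell.

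Against B6 alone, 6 of 39 rose and 0 fell: the same 3 genes, Rsph1, Ift88 and Ift46, where 1.11% of all probe sets rose and 1.07% fell. Another 11 had an unadjusted p under 0.05, which makes 17 of 39, all positive, against 14.4% of all. Of the 39 differences 33 were positive (52.9% of all). Signals of the null arrays were above all 4 B6 arrays for 13 of 39 probe sets and below them for 0 (7.51% and 6.01% of all). Against 129/Sv alone, 2 of 39 rose and 0 fell, both of them Ift27 probe sets (1.41% of all rose and 0.628% fell). There, 12 of 39 had an unadjusted p under 0.05, all positive (12% of all), and 32 were positive (50.5% of all). Null signals were above both 129/Sv arrays for 24 of 39 and below both for 4 (16.2% and 15.2% of all). The 3 comparisons share the null arrays, and those with a strain share its control arrays, so they are not independent.

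Dnah5, a heavy chain of the outer dynein arm, had signals of 1751.8 and 1495.4 on the 129/Sv arrays, of 1125.7, 1433.2, 1494.2 and 1116.4 on the B6 arrays and of 2268.2, 2278.5 and 2174.4 on the null arrays. Every null array was above every wild-type array, and the null arrays differed little among themselves (2240 ± 57.36, SD, n = 3, against 1624 ± 181.3, n = 2, in 129/Sv and 1292 ± 199.4, n = 4, in B6). Dnah5 rose 1.55-fold against the mean of both strains (log2 difference 0.63, SE 0.13, limma adjusted p = 0.0329) and 1.74-fold against B6 (0.80, SE 0.14, limma adjusted p = 0.00598). Against 129/Sv the log2 difference was 0.47 (SE 0.17, limma adjusted p = 0.223). With 1 array left out at a time, Dnah5 passed against B6 in 9 of 9 fits, while the call against the mean of both strains ended without either 129/Sv array or any 1 null array (limma adjusted p = 0.0505 to 0.159).

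Dnah11, another outer arm heavy chain, had signals of 1439.5 and 944.7 in 129/Sv, of 901.8, 998.4, 1377.1 and 680.3 in B6 and of 1774.7, 1481.9 and 1995.8 in the null arrays. The null arrays were again all highest, but B6 array 3 and 129/Sv array 1 came close to the lowest of them, and the log2 difference of 0.71 (SE 0.21) against the mean of both strains did not pass (limma adjusted p = 0.147). Dnah8, a dynein heavy chain best known from the sperm tail, followed another order in its probe set above the filter. Its signals were 978.8 and 953.2 in 129/Sv, 537.9, 636.9, 745.7 and 257.4 on B6 arrays and 885.4, 866.7 and 1158.6 in the null arrays, so that null and 129/Sv arrays overlapped and all B6 arrays were lower. Its log2 difference of null against B6 was 0.90 (SE 0.29, limma adjusted p = 0.149), and against 129/Sv it was -0.01 (SE 0.35, limma adjusted p = 0.998). The other Dnah8 probe set stayed between 12.1 and 200.4 on all arrays.

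**Figure D1:**
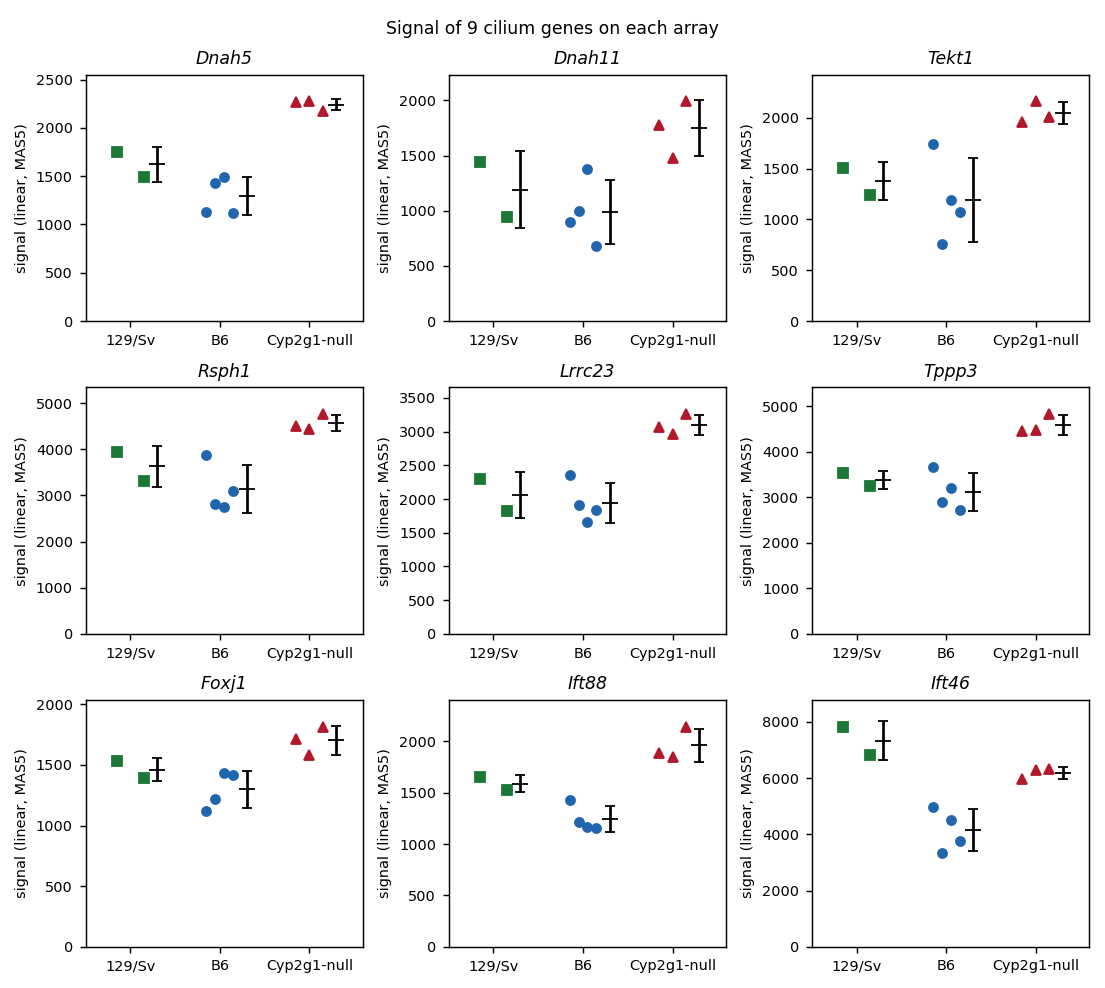
Signal (linear MAS5 units, axes from 0) of 9 cilium genes on each of the 9 arrays, by group, with 1 point per array and bars for the group mean ± SD. In Dnah5, Dnah11, Tekt1, Rsph1, Lrrc23, Tppp3, Foxj1 and Ift88 all 3 null arrays lie above all 6 wild-type arrays, and in Ift46 they lie between the strains.

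Tekt1, a filament protein of the doublet microtubule, had signals of 1508 and 1241.6 in 129/Sv, of 1743.7, 752.9, 1193 and 1070.2 in B6 and of 1958, 2164.5 and 2003.7 in the null arrays. The null arrays did not overlap the wild-type arrays, although B6 array 1 stood well above the other B6 arrays. The log2 difference against the mean of both strains was 0.70 (SE 0.20), larger than that of Dnah5, but with the wider spread it did not pass (limma adjusted p = 0.14). Without B6 array 1 it passed against the mean and against B6.

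Rsph1, a protein of the radial spoke head, had signals of 3950 and 3317.6 in 129/Sv, of 3878.9, 2808.7, 2760.4 and 3095.6 in B6 and of 4512.3, 4440.4 and 4769.8 in the null arrays. All null arrays were highest, and B6 array 1 and 129/Sv array 1 were next. Rsph1 rose 1.47-fold against B6 (log2 difference 0.56, SE 0.13, limma adjusted p = 0.0351). Its difference from the mean of the strains was 0.45 (SE 0.12, limma adjusted p = 0.102). Its call against B6 ended without B6 array 2, 3 or 4 or any 1 null array (limma adjusted p = 0.0777 to 0.146). Rsph9, of the same spoke head, overlapped between groups: 2719.8 and 2509.1 in 129/Sv, 2835.6, 2831, 2224 and 2839 on B6 arrays, and 3244.1, 3328.9 and 2776.3 in the null arrays. Its log2 difference against the mean of both strains was 0.23 (SE 0.11, limma adjusted p = 0.451).

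Lrrc23, a leucine-rich repeat protein of the radial spoke, had signals of 2303.5 and 1821 in 129/Sv, of 2355.3, 1907.8, 1664.9 and 1841.2 in B6 and of 3068.3, 2961.5 and 3264.1 in the null arrays. The lowest null array was above the highest wild-type array, and the strains overlapped. Lrrc23 rose 1.55-fold against the mean of both strains (log2 difference 0.64, SE 0.13, limma adjusted p = 0.0285) and 1.6-fold against B6 (0.68, SE 0.14, limma adjusted p = 0.0153). Its difference from 129/Sv was of like size, 0.59 (SE 0.16), and did not pass (limma adjusted p = 0.0874). The call against the mean ended without 129/Sv array 2 or any 1 null array (limma adjusted p = 0.0928 to 0.137), and that against B6 without B6 array 3 or any 1 null array (0.0501 to 0.089). This probe set is of a type (_a_at) that can match several transcripts of a gene.

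Tppp3, a tubulin-binding protein used as a marker of ciliated cells, had signals of 3530.5 and 3249.2 in 129/Sv, of 3656, 2892.9, 3202.1 and 2720.9 in B6 and of 4449.6, 4485.3 and 4835.4 in the null arrays. The null arrays did not overlap the wild-type arrays, and the strains overlapped. Tppp3 rose 1.41-fold against the mean of both strains (log2 difference 0.50, SE 0.11, limma adjusted p = 0.0411) and 1.48-fold against B6 (0.56, SE 0.11, limma adjusted p = 0.0175). Against 129/Sv the difference was 0.44 (SE 0.14, limma adjusted p = 0.151). When single arrays were left out, the call against the mean stood only without B6 array 1 (limma adjusted p = 0.0569 to 0.184 in the other 8 fits), and that against B6 ended without B6 array 4 or any 1 null array (0.0502 to 0.0999).

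Foxj1, the transcription factor of the motile cilium programme, had signals of 1529.7 and 1393.7 in 129/Sv, of 1122.1, 1222.6, 1435.5 and 1421.1 in B6 and of 1711.3, 1579.8 and 1816 in the null arrays. The null arrays were all highest, by a small margin over 129/Sv array 1. The log2 difference of 0.30 (SE 0.12) against the mean of both strains did not pass (limma adjusted p = 0.35), nor did that of 0.39 against B6 (SE 0.13, limma adjusted p = 0.17).

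Fank1, a gene first described in testis, had 2 probe sets above the filter. In 1419567_at the null arrays (950, 829.2 and 863.9) were above all wild-type arrays (482.8 to 695.4), with a log2 difference from the strain mean of 0.56 (SE 0.19, limma adjusted p = 0.21). In 1419566_at the null signals were 613.5, 715.3 and 825.4, B6 array 1 reached 680.3 and the other wild-type arrays 162.1 to 491.9. Both probe sets had positive differences, and the second, which exceeded the array median on 4 arrays, had the larger one with the larger error (0.99, SE 0.38, limma adjusted p = 0.293). Spag6l, a protein of the central pair of motile cilia, and Mlf1, a myeloid leukaemia factor, overlapped between groups. Spag6l ran from 1182 to 2198.1 on wild-type arrays, with the highest value on B6 array 3, and was 1875.9, 1780.3 and 1890.8 on the null arrays (log2 difference 0.37, SE 0.17, limma adjusted p = 0.406). Mlf1 ran from 2435.3 to 3321.4 on wild-type arrays, with the highest value on B6 array 1, and was 3537.4, 3121.5 and 3030 on the null arrays (0.26, SE 0.12, limma adjusted p = 0.409).

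The Cfap symbols, given to cilia- and flagella-associated proteins of many kinds, had 13 probe sets, of which 8 were above the filter and 0 passed in any comparison. Their median log2 difference against the mean of both strains was 0.22, and 0 had null arrays apart from all wild-type arrays. Cfap20, a protein of the doublet's inner junction, had the differences nearest to 0 in this class: 0.02 (SE 0.12) and 0.07 (SE 0.13) for its 2 probe sets (limma adjusted p = 0.966 and 0.894). The sign of the first turned under several alternatives. Cfap298, which is needed for dynein arm assembly, had signals of 1644.8 and 1528.1 in 129/Sv, of 1356.6, 2094.6, 2267.3 and 1991.6 in B6 and of 2125.4, 2051.5 and 2612.7 in the null arrays in probe set 1424315_at. The null arrays were above both 129/Sv arrays and overlapped B6 (0.37 against the mean of both strains, SE 0.16, limma adjusted p = 0.359). Cfap157, known from the sperm tail, had the largest difference of the class (0.66, SE 0.32, limma adjusted p = 0.45), with null signals of 621.2, 640.9 and 687 and wild-type signals of 227.1 to 696.2. Cfap410 was the only motile axoneme probe set with a negative difference against the mean of both strains (-0.37, SE 0.46, limma adjusted p = 0.817), and its signals of 147.3 to 689.9 spread over all groups.

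**Figure D2:**
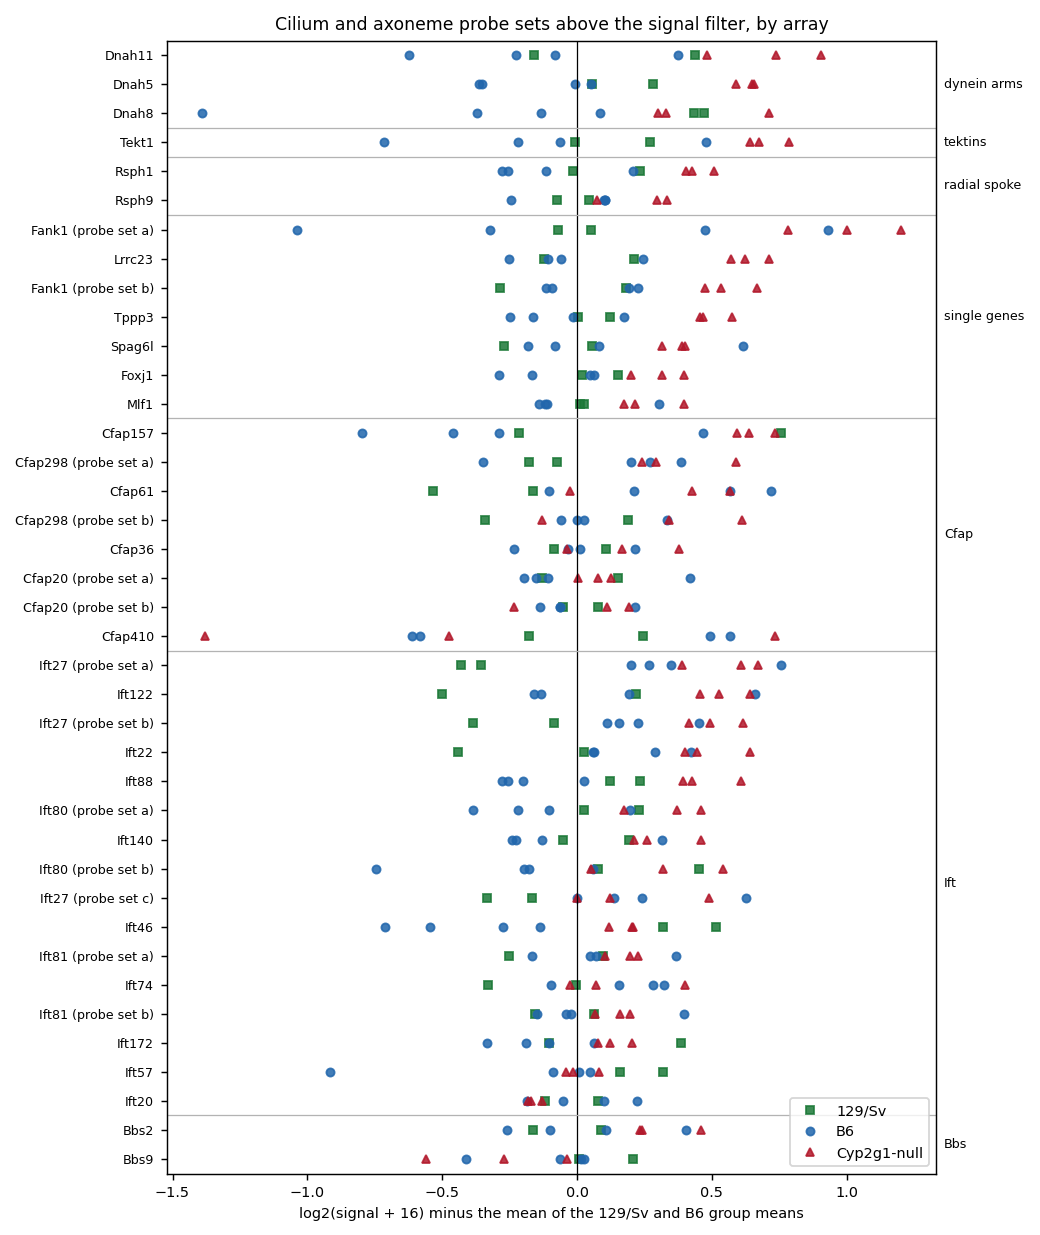
Level of each of the 39 probe sets above the signal filter on each of the 9 arrays, as log2(signal + 16) minus the mean of the 129/Sv and B6 group means (horizontal axis), with 1 line per probe set and 1 marker per array. The difference of null from the strain mean was positive for 20 of 21 motile axoneme and 16 of 18 Ift and Bbs probe sets. All null markers lie to the right of all wild-type markers in 8 of 21 motile axoneme and 1 of 18 Ift and Bbs probe sets.

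Among the transport genes, Ift88, a subunit of the IFT-B complex needed to build cilia, was the 1 of 18 probe sets with all null arrays above all wild-type arrays. Its signals were 1649.9 and 1529.5 in 129/Sv, 1428.6, 1217.3, 1171 and 1153.9 on B6 arrays and 1891.5, 1847 and 2144.1 in the null arrays. All B6 arrays were also below both 129/Sv arrays. Ift88 rose 1.57-fold against B6 (log2 difference 0.65, SE 0.13, limma adjusted p = 0.0136). The difference from the mean of the strains was 0.48 (SE 0.12, limma adjusted p = 0.08) and against 129/Sv 0.30 (SE 0.15, limma adjusted p = 0.477). Without null array 1 or null array 3 the call against B6 ended (limma adjusted p = 0.0509 to 0.09).

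Ift46, also of IFT-B, had signals of 7826.2 and 6831.6 in 129/Sv, of 4970.1, 3336.5, 4521.1 and 3745.6 in B6 and of 5948.6, 6302.8 and 6325.2 in the null arrays. The 3 groups did not overlap, and the null arrays lay between the strains. Ift46 was lower in B6 than in 129/Sv (log2 difference -0.83, SE 0.14, limma adjusted p = 0.00312) and rose 1.51-fold in null against B6 (0.59, SE 0.13, limma adjusted p = 0.0268). The null difference from the mean of the strains was 0.18 (SE 0.12, limma adjusted p = 0.613). The strain difference ended as a call without 129/Sv array 1 (limma adjusted p = 0.0634), and the null difference from B6 without B6 array 2 or 4 or any 1 null array (0.0528 to 0.112).

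Ift27, a small GTPase of IFT-B that takes part in the exit of Bbs cargo from cilia, ran the other way between strains. Probe set 1424648_at had signals of 488.6 and 463.9 in 129/Sv, of 725.6, 761.7, 1074 and 807.4 in B6 and of 829.5, 968.9 and 1013.6 in the null arrays. Both 129/Sv arrays were below all others, and B6 and null arrays overlapped. It was 1.72-fold higher in B6 than in 129/Sv (log2 difference 0.79, SE 0.21, limma adjusted p = 0.0459) and 1.93-fold higher in null than in 129/Sv (0.95, SE 0.22, limma adjusted p = 0.0436). Probe set 1434299_x_at had 1535.3 and 1242.6 in 129/Sv, 2231.9, 1905.6, 1815.8 and 1760.4 on B6 arrays and 2502.8, 2296.3 and 2179.6 in the null arrays, and was 1.67-fold higher in null than in 129/Sv (0.74, SE 0.15, limma adjusted p = 0.0202). With 1 array left out, the strain call of 1424648_at stood only without B6 array 1 (limma adjusted p = 0.0611 to 0.241 in the other 8 fits). The null calls against 129/Sv stood in 2 of 9 fits for 1424648_at (without B6 array 1 or 3) and in 6 of 9 for 1434299_x_at (not without 129/Sv array 2, null array 1 or null array 2). The third probe set, 1435736_x_at, had the same order of 129/Sv below the rest, with a null difference of 0.46 that did not pass (SE 0.23, limma adjusted p = 0.489). Probe sets of the _x_at type can match other transcripts.

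The other Ift and Bbs probe sets passed in 0 of the 4 comparisons. Ift22, a small GTPase of IFT-B, had signals of 848.4 and 1179 in 129/Sv, of 1419.4, 1557.3, 1208.6 and 1212.2 in B6 and of 1816.4, 1584 and 1533.6 in the null arrays. It too was lowest in 129/Sv (null against 129/Sv 0.70, SE 0.18, limma adjusted p = 0.0733). Ift140 and Ift122, of the IFT-A complex that returns cargo to the cell body, had log2 differences from the strain mean of 0.31 (SE 0.14, limma adjusted p = 0.386) and 0.54 (SE 0.28, limma adjusted p = 0.483). Ift81 and Ift74, which bind tubulin as a pair, had differences of 0.14 and 0.17 (the 2 Ift81 probe sets) and 0.15. Ift20, the Golgi-linked subunit, was between 7860.8 and 10456.3 on wild-type and between 7888.9 and 8179.1 on null arrays (-0.16, SE 0.10, limma adjusted p = 0.555). Bbs2 and Bbs9, both subunits of the adaptor complex, had differences of opposite sign: 0.31 (SE 0.16, limma adjusted p = 0.483) and -0.29 (SE 0.19, limma adjusted p = 0.585).

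Between the wild-type strains, 1 of the 39 probe sets was higher in B6 (Ift27) and 1 lower (Ift46), against 2.92% and 2.27% of all probe sets. At an unadjusted p under 0.05 there were 8 of 39, of which 5 were higher in B6 (Ift22, all Ift27 probe sets and Cfap61) and 3 lower (Ift46, Ift88 and Dnah8), against 17.4% of all. The difference was positive for 17 of 39 (48% of all). The 4 B6 arrays were above both 129/Sv arrays for 5 probe sets and below both for 6 (12.2% and 12.9% of all). Of these 11 probe sets, 8 were of Ift genes (Ift22, Ift27, Ift46, Ift57, Ift80 and Ift88), and the others were of Cfap61, Dnah5 and Dnah8.

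**Figure D3:**
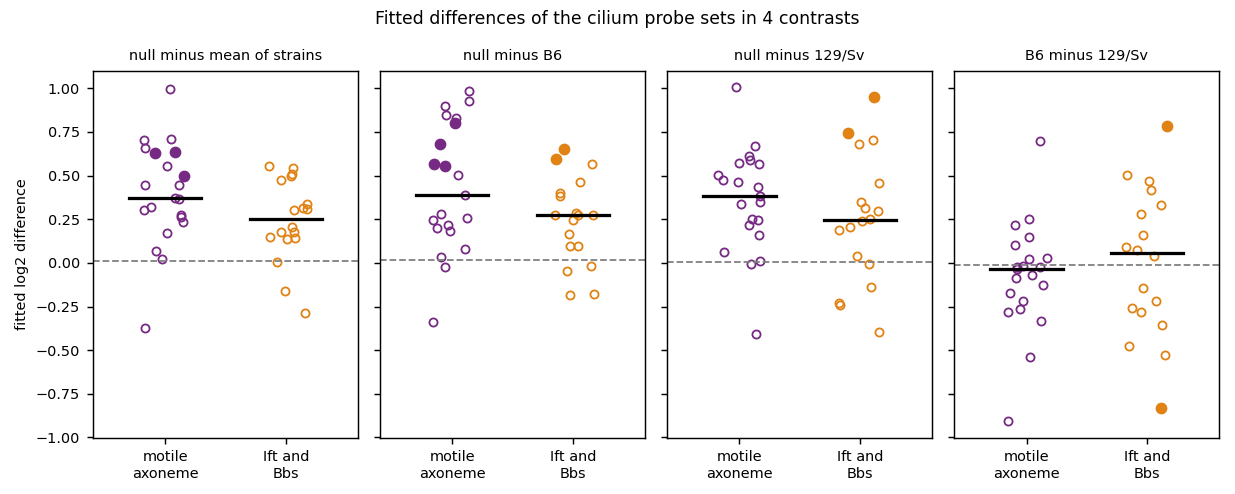
Fitted log2 differences (vertical axis) of the 21 motile axoneme and 18 Ift and Bbs probe sets above the filter in 4 comparisons, with 1 point per probe set (filled where the limma adjusted p is under 0.05), a bar at each class median and a dashed line at the median of all 12575 probe sets. The class medians lie above the dashed line in the 3 comparisons with the null group, and close to it for B6 against 129/Sv.

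Set side by side, motile axoneme genes above the filter had a larger median difference in null mice than Ift and Bbs genes, a contrast between classes that was not tested. The median log2 difference of the 21 motile probe sets was 0.37 against the mean of both strains, 0.39 against B6 and 0.39 against 129/Sv. The 18 Ift and Bbs probe sets had medians of 0.25, 0.27 and 0.25, and all 12575 had medians of 0.01, 0.02 and 0.00. With no filter, over all 30 motile probe sets, the order of the classes turned against 129/Sv (0.239 for motile, 0.247 for Ift and Bbs) and held in the other comparisons with null mice (0.345 against the mean and 0.531 against B6). Against the mean of both strains 20 of 21 motile and 16 of 18 Ift and Bbs differences were positive. Null arrays stood above all wild-type arrays for 8 of 21 motile probe sets (Dnah5, Dnah11, Tekt1, Rsph1, Lrrc23, Tppp3, Foxj1 and Fank1 1419567_at) and for 1 of 18 Ift and Bbs probe sets. Between strains the class medians were -0.03 and 0.06. Without the 8 Cfap probe sets the motile median was 0.50 against the mean of both strains, with 13 of 13 positive, a division made after the values were seen.

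The mean level of each class on each array shows the same order. Relative to the mean of the 6 wild-type arrays, the motile class was at 0.12 and -0.02 (log2) on the 129/Sv arrays, at 0.14, -0.08, 0.04 and -0.19 on the B6 arrays and at 0.48, 0.36 and 0.39 on the null arrays. The Ift and Bbs class was at 0.05 and -0.05 in 129/Sv, at 0.17, -0.11, 0.05 and -0.10 in B6 and at 0.21, 0.21 and 0.30 in the null arrays. In both classes all null arrays were highest, but the gap to the highest wild-type array, B6 array 1 in both, was wider for the motile class. The group means ± SD were 0.05 ± 0.10 (n = 2), -0.03 ± 0.14 (n = 4) and 0.41 ± 0.06 (n = 3) for the motile class, and 0.00 ± 0.07, 0.00 ± 0.13 and 0.24 ± 0.05 for Ift and Bbs. The motile level minus the Ift and Bbs level, on the same scale, was 0.07 and 0.04 in 129/Sv, -0.03, 0.03, -0.01 and -0.09 on B6 arrays, and 0.27, 0.15 and 0.08 in the null arrays. The null arrays were thus highest in this contrast too, with null array 3 close to 129/Sv array 1. These are averages over chosen genes and carry no test.

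**Figure D4:**
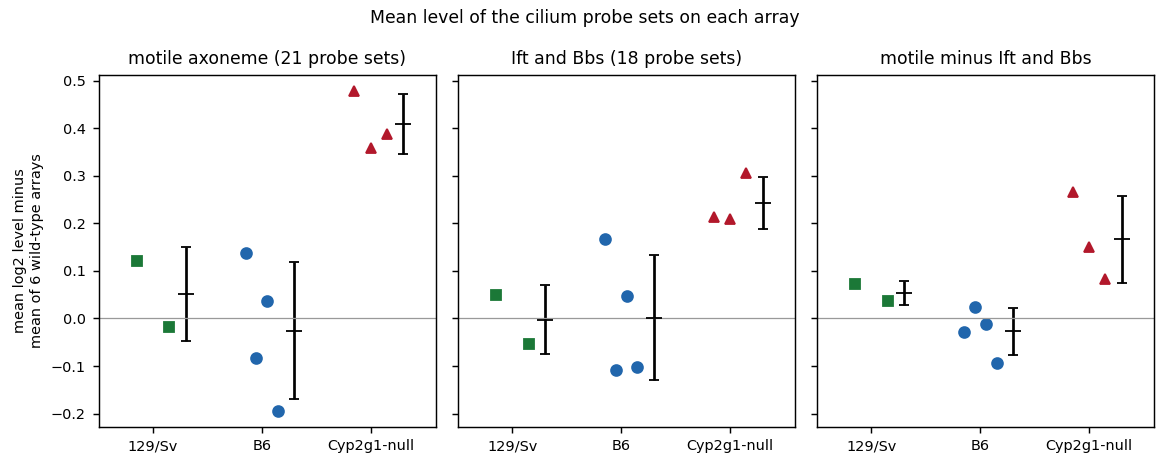
Mean log2 level of the motile axoneme class and of the Ift and Bbs class on each array, minus the mean of the 6 wild-type arrays (vertical axis), by group, with 1 point per array and bars for the group mean ± SD; the right panel shows the first class minus the other. The null arrays lie at 0.36 to 0.48 for the motile class and at 0.21 to 0.30 for Ift and Bbs.

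Other genes of these structures were taken from lists. Of the axonemal partners (further arm, spoke, nexin and central pair genes, with tubulins, a dynein light chain of many complexes and the ciliary kinases Mak and Mok), 26 probe sets were above the filter. Of all probe sets tested, 52.5% were positive against the mean of both strains, 0.755% rose and 0.469% fell. In that comparison 23 of the 26 partner probe sets were positive with a median of 0.33, and 1 passed. That was Drc3, a subunit of the nexin-dynein regulatory complex, with 2622.3 and 2345.5 in 129/Sv, 3408, 2752.1, 2764.6 and 2676.9 on B6 arrays and 3888.8, 3574.5 and 3741.3 in the null arrays. Its null arrays were above all others (log2 difference 0.48, SE 0.11, limma adjusted p = 0.0457), a call that stood only without B6 array 1 when arrays were left out (0.0635 to 0.219 in the other 8 fits). Drc3 also passed against 129/Sv (0.59, SE 0.13, limma adjusted p = 0.0394), in 3 of 9 such fits. It did not pass against B6 (0.37, SE 0.11, limma adjusted p = 0.12), and all B6 arrays were above both 129/Sv arrays. The 5 probe sets of Dynll1, Tuba1a and Tubb4b, which are used far beyond cilia, had a summed signal of 57120 to 60509 in 129/Sv, 59666 to 72450 in B6 and 73558 to 76231 in the null arrays. Without them, 18 of 21 were positive (median 0.34), and the sums were 19910 to 22498 in 129/Sv, 21638 to 24488 in B6 and 26834 to 28489 in the null arrays, a division made after the values were seen. Of the dynein arm assembly factors 6 of 6 were positive (median 0.18) and 0 passed, and of the ciliogenesis regulators 3 of 8 were positive (median -0.06) and 0 passed.

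Of the transport motors and further transport subunits, 15 of 24 were positive (median 0.09) and 0 passed against the mean of both strains. There, 52.5% of all probe sets were positive and 0.755% rose. Ttc30b, an IFT-B subunit, rose against B6 (1.4-fold, log2 difference 0.48, SE 0.11, limma adjusted p = 0.0392). Its signals were 1885.9 and 1733.8 in 129/Sv, 1708.8, 1681.5, 1693.2 and 1511.8 on B6 arrays and 2413.2, 2151.5 and 2367.7 in the null arrays. Its call likewise stood in 1 of 9 fits, that without B6 array 1 (limma adjusted p = 0.0525 to 0.167 in the others). Of the transition zone genes, which gate the base of the cilium, 7 of 8 were positive (median 0.35) and 1 passed. That was Rpgrip1, in its only probe set above the filter. This had 158.2 and 29 in 129/Sv, 3514.6, 3174, 3351 and 3153.2 on B6 arrays and 1918.1, 1282.6 and 1692.9 in the null arrays. Null arrays lay between the strains, so its difference of 1.59 from the mean of both (SE 0.31, limma adjusted p = 0.0249) stands beside a strain difference of 5.22 (SE 0.37, limma adjusted p = 9.03e-07). The former ended without any 1 null array (limma adjusted p = 0.0561 to 0.139), and the strain difference passed in 9 of 9 fits. Ahi1, of the same list, was also low in 129/Sv (58.7 and 189) and at 459.8 to 703.4 on B6 arrays and 463.7 to 642.2 in the null arrays (B6 against 129/Sv 2.33, SE 0.42, limma adjusted p = 0.00375). The other probe sets of Rpgrip1 (22.9 to 212.7 over all arrays) and of Ahi1 (7.8 to 208.6) were below the filter and not tested. In each of them the strains overlapped.

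Markers of other cells in or near the gland were read on the same arrays. The respiratory epithelium lines the nose near the gland and holds ciliated cells. Of 13 probe sets for its secretory and basal cells, 8 were positive against the mean of both strains, with a median of 0.06. In that comparison 52.5% of all probe sets were positive and 0.755% rose. Aqp5 was entered in this list and in the glandular serous list, so the lists are not separate. The summed signal of all 25 probe sets of the list, those below the filter included, was 134423 to 140894 in 129/Sv, 129617 to 178217 on B6 arrays and 135108 to 174634 in the null arrays. Among them 1 passed: Reg3g, a secreted antimicrobial lectin, at 22972.1 and 21497.2 in 129/Sv, 29630.3 to 36840.2 on B6 arrays and 37161.4 to 45203.9 in the null arrays (log2 difference 0.57, SE 0.09, limma adjusted p = 0.00553). Reg3g also passed for null against 129/Sv (9 of 9 fits with 1 array left out) and for B6 against 129/Sv (8 of 9). It did not pass for null against B6. Of 6 olfactory neuron probe sets 1 was positive (median -0.15), and all 26 of the list had sums of 3514 to 5413 in 129/Sv, 5290 to 16642 in B6 and 3955 to 11276 in the null arrays. Medians were -0.06 over 5 olfactory supporting cell, -0.20 over 14 endothelial and stromal, -0.01 over 9 leukocyte and 0.11 over 8 glandular serous probe sets. Sums over all leukocyte probe sets were 49849 to 66992 in 129/Sv, 38864 to 48101 in B6 and 51241 to 62522 in the null arrays. In the same order they were 75308 to 80237, 89625 to 112792 and 75048 to 90408 for endothelium and stroma. For olfactory supporting cells they were 53736 to 56653, 39156 to 49953 and 43610 to 49859. Against B6 the medians were 0.17 (respiratory), -0.83 (olfactory neurons, 0 of 6 positive), 0.14 (olfactory supporting), -0.42 (endothelial and stromal), -0.09 (leukocyte) and 0.04 (serous). Differences from B6 were positive for 7 of 13 respiratory, 4 of 5 olfactory supporting and 1 of 14 endothelial and stromal probe sets. They were positive for 4 of 9 leukocyte and 4 of 8 serous probe sets. Of all probe sets tested, 52.9% were positive against B6, 1.11% rose and 1.07% fell. In that comparison the collagen genes Col1a1, Col1a2 and Col3a1 and the respiratory list's Adh7, an alcohol dehydrogenase, fell (log2 differences -0.65, -0.62, -0.41 and -1.04, limma adjusted p = 0.0196, 0.0408, 0.0327 and 0.00339). The macrophage lysozyme Lyz2 and the secreted proteins Dmbt1 and Car6 of the serous list rose (0.50, 0.62 and 4.70, limma adjusted p = 0.0115, 0.0301 and 0.0158). With single arrays left out, Adh7 passed in 9 of 9 fits and the other 6 genes in 3 to 7. Every lost call ended without a null array or without B6 array 2, 3 or 4 (limma adjusted p = 0.0542 to 0.189). For vomeronasal neurons and skeletal muscle, 0 probe sets were above the filter. The part of any of these cells in the cilium gene differences was not tested.

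The 5 named genes outside the set whose log2 signals over the 9 arrays most resembled the mean level of the motile class were Rad21, a cohesin subunit (Pearson r = 0.974), Trp53inp1, a stress-response gene (0.966), Spa17, a sperm protein also found in cilia (0.962), Ttc30b (0.961) and Rnf128, a ubiquitin ligase (0.959). They were the closest of 11564 probe sets compared, over 9 arrays that fall into the study's groups, so r describes likeness alone. In all 5 the null arrays were above all wild-type arrays.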

How the data were processed

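Signals of 22690 probe sets on 9 arrays were used as deposited: linear intensity values that the authors computed with MAS5, per the submitters' processing notes (version not given in the sources used here). Of these, 64 control probe sets were left out, 691 others had several symbols and 1555 none. One probe set with 2 Rsph3 symbols was therefore no member. All 48 members matched a RefSeq gene table, which changed 0 symbols. No array pair was identical, and the labels name no batch.

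Signals became log2(signal + 16), which understates changes of low signals, with no further scaling. Group means were fitted to all 12575 probe sets with limma 3.58.1 in R 4.3.3 (eBayes with trend, all groups sharing 1 spread). Tests were two-sided, with a threshold of 0.05, and the script was tested on simulated data. Precision is limited by how few arrays there were. The members and lists were chosen with earlier results of these data known, some of which already showed Dnah5, Lrrc23 and Tppp3.

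Named by rule are members that passed, up to 12 by p, the 2 with the highest signal per role, the single genes, passing list genes, Cyp2g1, Omp and the 5 nearest patterns. Reg3g, Myb, other cell marker genes and the other members were named after their values were seen. Alternatives were quantile or median scaling, pseudocounts of 1 and 64, other filters, 1 value per gene, no shared probe set types, array weights, no trend, blocks by replicate number, fewer groups, 1 wild-type group, a stricter adjusted p (0.01) and omission of each array. A set without Cfap was added after seeing the data.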

Additional observations from a re-analysis of the deposited data

Results flagged for a closer look

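In the 4 B6 arrays, 58 probe sets (the 39 cilium probe sets above the filter and 19 of other genes named in the text) were examined for an array that stands apart, with Dixon's critical value of 0.829, and 5 had one. Chance gives about 1 in 20. For Mlf1, B6 array 1 had 3321.4 and the others 2435.3 to 2481.7. For Cfap20 (1452896_at), B6 array 1 had 5289 and the others 3441.9 to 3664.3. For Drc3, B6 array 1 had 3408 and the others 2676.9 to 2764.6. For Rsph9, B6 array 3 had 2224 and the others 2831 to 2839. For Ttc30b, B6 array 4 had 1511.8 and the others 1681.5 to 1708.8. In 3 of the 5, the array was B6 array 1, which also had the highest mean level of both cilium classes among wild-type arrays and the highest Cyp2g1 and Omp signals. Whether these go together was not tested.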

How the results depend on the processing

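The counts of members called were 3 against the mean of both strains, 6 against B6, 2 against 129/Sv and 2 for B6 against 129/Sv. Against 129/Sv the count was 1 with quantile normalization, equal medians, no filter, the 75th percentile filter, 1 value per gene (highest or mean), no shared probe set types or no trend, 4 with array weights, 3 with only the groups compared and 0 at an adjusted p of 0.01. B6 against 129/Sv gave 1 with quantile normalization, equal medians, no filter, the 75th percentile filter, the highest probe set, only the groups compared and an adjusted p of 0.01. Against the mean it was 0 without trend, with both strains taken as 1 group and at an adjusted p of 0.01, 7 with array weights, and 2 with equal medians, no filter or no shared types. Against B6 it was 2 without trend and 1 at an adjusted p of 0.01. Over all probe sets, 154 passed against the mean, 291 with array weights, 107 with no filter, 59 without trend and 4 with both strains taken as 1 group. The causes were not tested.

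Leaving out arrays gave 0 to 7 calls against the mean of both strains, 1 to 8 against B6, 0 to 3 against 129/Sv and 0 to 2 between strains. Against the mean, the count was 0 without 129/Sv array 2 or without any 1 null array, 1 without 129/Sv array 1 and 7 without B6 array 1. Against B6 it was 3 without B6 array 4 and 1, 2 and 1 without null arrays 1, 2 and 3. Against 129/Sv it was 0 without 129/Sv array 2, null array 1 or null array 2, and 1 without 129/Sv array 1, B6 array 2, B6 array 4 or null array 3. Between strains it was 0 without 129/Sv array 1 and 1 without every other array but B6 array 1. Single genes are given beside their values.

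With the replicate number as a block, 1 member passed against the mean (Lrrc23), 2 against B6 (Dnah5 and Lrrc23), 1 against 129/Sv and 1 between strains. Deviations of same-numbered arrays correlated at -0.075 to 0.096, and the pools came from different mice. The labels do not say what the replicate numbers stand for. Whether same-numbered arrays shared a processing run was not tested.

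The class medians of the 3 null comparisons were positive under all alternatives. The motile median was 0.53 against B6 and 0.24 against 129/Sv with no filter (the latter below the Ift and Bbs median), and 0.50 against the mean and 0.56 against B6 without Cfap. Leaving out arrays gave 0.33 to 0.47 against the mean, 0.34 to 0.44 against B6, 0.27 to 0.46 against 129/Sv and -0.164 to 0.001 between strains. The Ift and Bbs median gave 0.19 to 0.28, 0.19 to 0.32, 0.13 to 0.34 and -0.03 to 0.06, and -0.05 between strains with 1 value per gene. The sign turned for Cfap20 1419462_s_at: -0.019 with equal medians, -0.007 with the block, -0.010 without 129/Sv array 2 and -0.021 without null array 2, with -0.061 to 0.151 over all arrays left out. For 1452896_at these gave 0.000 to 0.141. A fit of only the groups compared gives no separate value against the mean of both strains. Low probe sets limit what these arrays can show of Dnah1, Tekt2 and Rsph6a.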
